A study of Mus musculus with 16 samples.

Results

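The 10 genes of the major histocompatibility complex (MHC) class II presentation pathway were examined in positively selected germinal center (GC) B cells: Cd74, H2-Aa, H2-Ab1, H2-Eb1, H2-DMa, H2-DMb1, H2-DMb2, H2-Oa, H2-Ob and Ciita. They were taken by gene symbol, and all 10 of the 10 listed were found among the 51912 genes of the deposited table. The mice carried the cMyc gfp/gfp reporter on a C57BL/6J background, in which a GFP-cMyc fusion protein is made from the endogenous locus, so every subpopulation shared this allele and no unmodified control was in the series. Male and female mice of 6 to 15 weeks received sheep red blood cells (SRBC) intraperitoneally, and splenic B cells were taken 7 d later. After CD43 depletion, GC B cells positive for cMyc-GFP (B220+ CD38low CD95+) were sorted into 4 subpopulations with 4 libraries each, 16 in all. cMyc+prePB cells were CD69hi, cMyc+early cells were CD23hi CD21/35hi, cMyc+lateCD23int cells were CD23int CD21/35int and cMyc+lateCD23lo cells were CD23lo CD21/35lo. The subpopulations are called prePB, early, lateCD23int and lateCD23lo below, and the libraries of each carry a number from 1 to 4. The labels do not say whether the libraries came from separate animals or from pools, so p-values measure the spread between these libraries, which may be partly technical.

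B cells display peptides of internalized antigen on MHC class II molecules to T follicular helper cells, and the help they receive in return is a requirement for positive selection in the light zone (LZ) and for the induction of cMyc. The α and β chains assemble in the endoplasmic reticulum with the invariant chain, which fills the groove and carries the complex to endosomes. There the invariant chain is cut down to the CLIP fragment, H2-DM removes CLIP and edits the peptide, and H2-O, found mainly in B cells, holds H2-DM back. Transcription of most of these genes depends largely on CIITA, a coactivator that binds no DNA itself and is recruited by factors sitting on the X and Y boxes of class II promoters.

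Levels are given as normalized counts, in which the gene counts of a library were scaled by its size factor. The 16 libraries held 19812080 to 25795815 reads assigned to genes. B cell genes were present throughout: Cd79a lay between 18438 and 32113 and Ms4a1 between 40188 and 144159.8. Dendritic cells and macrophages also make class II, so their markers were summed. The 9 dendritic cell markers summed to 484 to 1070.0, most of it Flt3 (mean 723). Zbtb46 was above 0 in every library and reached 103, Xcr1 reached 107 and Batf3 109. Clec9a was at 0 in 15 and Siglech in 15 of 16 libraries. Itgax, Cd209a and Ccl17 did not exceed 48.0, 49.0 and 17.2. The 9 macrophage and monocyte markers summed to 0.962 to 1157, highest in lateCD23lo library 3. Most of it was Lyz2, at up to 968, with means of 113 ± 180.3 in prePB, 61.9 ± 70.0 in early, 178 ± 209 in lateCD23int and 390.2 ± 410.5 in lateCD23lo. Adgre1, which DESeq2 called lower in prePB than in lateCD23lo (adjusted p = 0.0333), stood at no more than 184 and Csf1r at no more than 51.1. The 8 T cell markers reached 487, the 5 follicular dendritic and stromal markers found 78.6 and the 6 neutrophil and erythroid markers 2225, most of it Hbb-bs and Hba-a1. The 10 class II genes together stood at 937715 to 1710373. The part of other cell types in that sum was not tested.

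In the mouse genome (GRCm38, GENCODE vM21), 8 of the 10 genes lie within 224 kb of chromosome 17, and Ciita lies at chr16:10480059-10528418 on the plus strand with 19 exons. From the centromeric side, H2-Oa (chr17:34092340-34095234), H2-DMa (chr17:34119541-34139101), H2-DMb2 (chr17:34143307-34151555), H2-DMb1 (chr17:34153072-34160230), H2-Ob (chr17:34238903-34254414), H2-Ab1 (chr17:34257689-34269419), H2-Aa (chr17:34282744-34287823) and H2-Eb1 (chr17:34305867-34316674) follow each other, all on the plus strand except H2-Aa. Their principal transcripts have 5 or 6 exons. H2-Eb1, H2-Oa and Ciita overlap a gene on the other strand (Gm20513, BC051537 and Dexi), and H2-DMa overlaps 4 annotated genes, among them Brd2 on the other strand. The strandedness of the counting is not given in the sources used here, so reads in such overlaps could not be assigned with certainty.

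Promoter sequence from RefSeq (GRCm38.p6, 250 bases before to 50 after each start site) was matched for 7 of the 10 genes: H2-Oa, H2-DMa, H2-DMb1, H2-DMb2, H2-Ob, H2-Aa and H2-Eb1. The windows of 4 genes are shown for the motifs of class II promoters: those of H2-DMb2, H2-Ob and H2-Eb1 hold the X box, read as AACNNATGA (N is any base), and the Y box, read as GATTGG, and that of H2-Aa holds the Y box alone of these. Each is 100 bases, from position -135 to -36 relative to the start site, 5′ to 3′ on the gene's strand, with the motifs in capitals. In H2-Aa the capitals mark the Y box and TGACGTCA, the cyclic AMP response element (CRE).
H2-DMb2: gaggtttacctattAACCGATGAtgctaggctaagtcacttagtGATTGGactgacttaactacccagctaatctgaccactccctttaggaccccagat
H2-Ob: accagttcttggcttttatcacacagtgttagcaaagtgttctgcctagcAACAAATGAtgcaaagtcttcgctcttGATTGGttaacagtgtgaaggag
H2-Eb1: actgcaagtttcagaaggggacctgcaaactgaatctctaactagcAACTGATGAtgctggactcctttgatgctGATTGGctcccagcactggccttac
H2-Aa: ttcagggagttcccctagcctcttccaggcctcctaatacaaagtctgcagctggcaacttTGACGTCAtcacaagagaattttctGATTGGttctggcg
These windows are chr17:34145114-34145213 (plus strand), chr17:34238770-34238869 (plus), chr17:34305732-34305831 (plus) and chr17:34287859-34287958 (minus).

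In H2-DMb2 the X box began at position -121 and the Y box 30 bases further on. The same order was found in H2-Eb1, 29 bases apart, in H2-Ob, 27 bases apart, and in H2-DMb1, 30 bases apart. The H2-DMb1 and H2-Oa windows reach into an annotated first exon and are not printed. H2-Aa had the Y box at -49 and the CRE at -74 but no match to these X box letters, and H2-Oa had the Y box alone, at -44. Neither of the 2 H2-DMa entries held an X box, and 1 of them held a Y box outside the window. Searched on both strands, GATTGG occurred in 16.1% of all 32851 promoters of the same length, AACNNATGA in 2.85% and TGACGTCA in 1.79%. An X box followed on the same strand by a Y box that started 20 to 45 bases later occurred in 9 promoters (0.0274%), 4 of them the class II genes above and 1 more that of BC051142, also on chromosome 17. No motif overlapped another in the printed windows, and a match of letters is not evidence that a factor binds there.

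Class II transcripts made up 4.0% to 7.24% of all reads in a library. Cd74 was the most abundant of all genes tested, at 2.59% to 4.93% of reads, and H2-Ab1 ranked 3 and H2-Aa 15 by mean normalized count. Per kb of principal transcript, the mean levels over 16 libraries ran from 577859 for Cd74 through 198715 for H2-Ab1, 83054 for H2-Aa, 29979 for H2-Eb1, 22735 for H2-DMb2, 7235 for H2-DMa, 3094 for H2-Ob, 2324 for H2-Oa and 1136 for H2-DMb1 down to 341 for Ciita. Each gene stood above the next in 16 of 16 libraries, with the exception of H2-Ob over H2-Oa, which held in 13 of 16. The invariant chain and the I-A chains were thus at the top, and the transactivator was at the bottom.

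**Figure D1:**
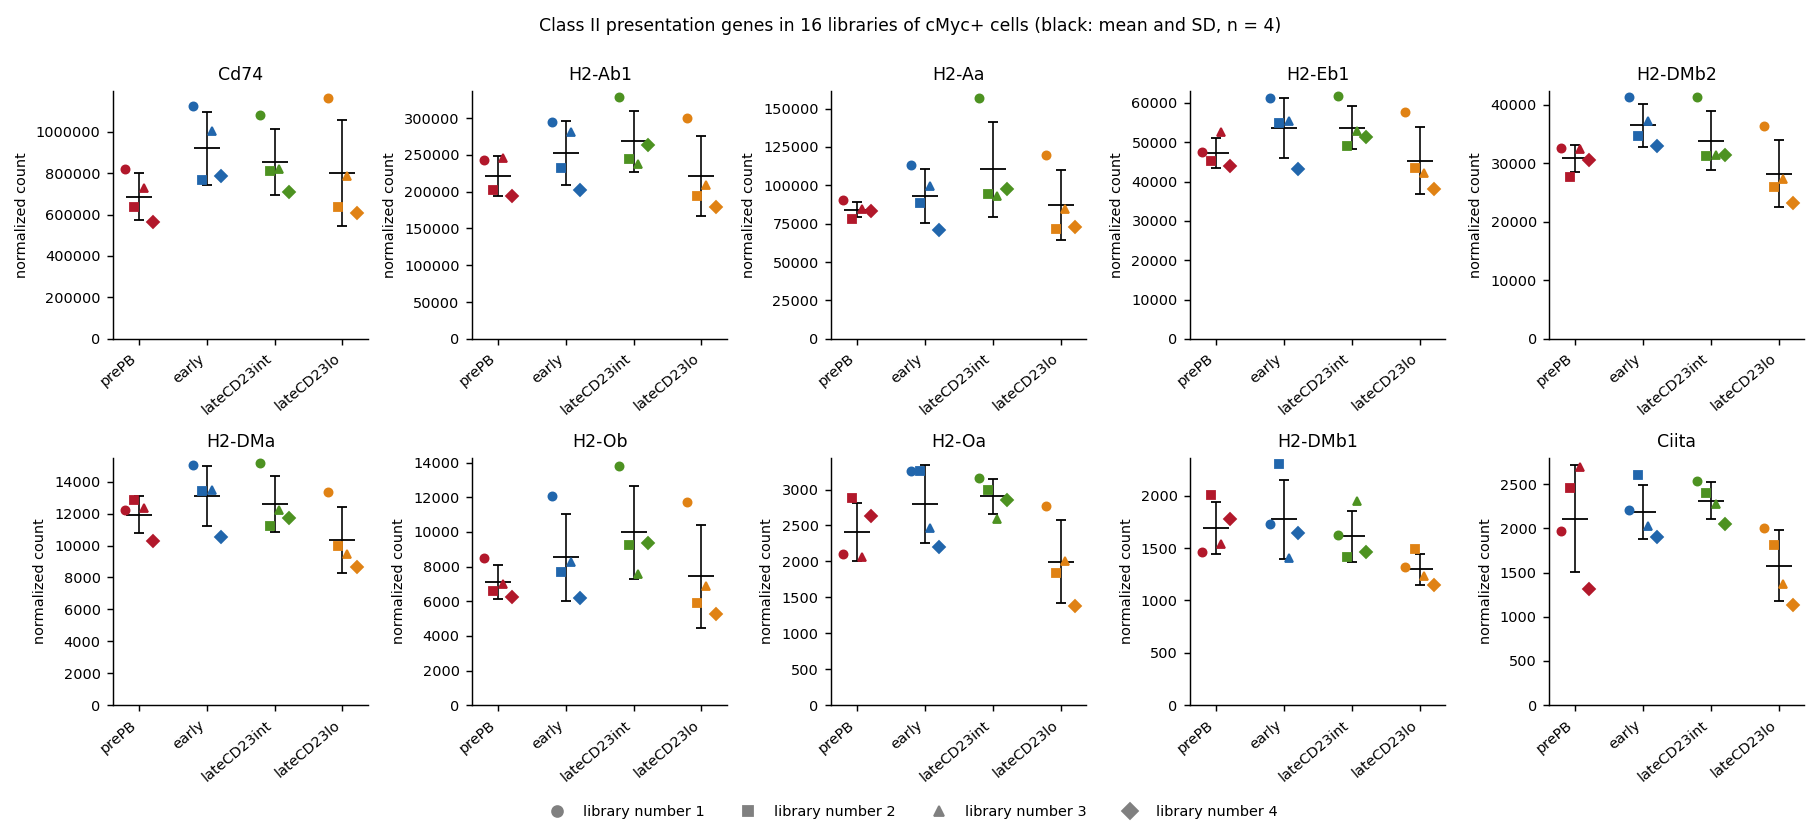
Normalized counts (y axis, from 0) of the 10 class II presentation genes in the 4 subpopulations of cMyc+ GC B cells (x axis); each point is 1 library, the marker shape gives its library number, and black bars are the mean and SD of 4 libraries. All 4 subpopulations overlap with each other for 7 of the 10 genes, the exceptions being 1 pair each for H2-Aa, H2-DMb2 and Ciita, and the libraries numbered 1 (circles) are the highest of their subpopulation in all 4 for Cd74, H2-Aa, H2-DMb2 and H2-Ob.

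Cd74, on chromosome 18, encodes the invariant chain. Its normalized counts were 819369, 634102, 730055 and 563102 in prePB, 1125204, 765148, 1000979 and 784306 in early, 1081652, 809412, 817523 and 709229 in lateCD23int and 1164431, 638323, 785779.9 and 607877 in lateCD23lo. Library 1 was the highest of each subpopulation, and the ranges of all 4 subpopulations overlapped. The means were 686657 ± 111839 in prePB, 918909 ± 174216 in early, 854454 ± 159271 in lateCD23int and 799103 ± 255643 in lateCD23lo (SD, n = 4). The difference with the smallest p was prePB minus early, at -0.42 (SE 0.21, 95% interval -0.86 to 0.027, adjusted p = 0.616) on the log2 scale. With the library number added as a block, the limma interval of this difference was -0.66 to -0.17 (adjusted p = 0.153). The adjusted p of edgeR with that block was 0.0850, also above the threshold. Fewer cells of a type and less RNA per cell cannot be told apart in such bulk samples.

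H2-Ab1 and H2-Aa encode the β and α chains of I-A, the class II molecule of C57BL/6 mice. H2-Ab1 was measured at 243257, 202009.9, 245460.2 and 194312 in prePB, 295255, 231819, 280519 and 202265 in early, 328582, 243869.9, 238329.8 and 263776 in lateCD23int and 300669, 194129, 209545 and 179675 in lateCD23lo. H2-Aa was measured at 90232, 78235, 84321 and 83574 in prePB, 112935, 88608, 99559 and 70946 in early, 156725, 94069, 93057 and 97756 in lateCD23int and 120001, 71632, 84255 and 73047 in lateCD23lo. In lateCD23int, library 1 stood at 156725 for H2-Aa while the other 3 lay between 93057 and 97756. Every lateCD23int library exceeded every prePB library for H2-Aa, so these groups did not overlap, yet the log2 difference of prePB minus lateCD23int was -0.36 (SE 0.19, 95% interval -0.76 to 0.047, adjusted p = 0.626). Over all tested genes, 5.21% had prePB and lateCD23int values that did not overlap. For H2-Ab1 the same difference was -0.28 (SE 0.18, 95% interval -0.65 to 0.093, adjusted p = 0.708). H2-Eb1 encodes the β chain of I-E, which cannot reach the surface in this strain because its α chain gene is defective. It was nonetheless abundant, at 47315 ± 3846 in prePB, 53715 ± 7659.9 in early, 53757 ± 5586 in lateCD23int and 45350.2 ± 8509.6 in lateCD23lo. The α chain pseudogene H2-Ea-ps was at 0 in 9 of 16 libraries and did not exceed 22.9.

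H2-DMa and the paired genes H2-DMb1 and H2-DMb2 encode the chains of H2-DM, which exchanges CLIP for antigenic peptide. H2-DMb2 was measured at 32658, 27744, 32478 and 30602 in prePB, 41293, 34683, 37198 and 32902 in early, 41399, 31237, 31496 and 31373 in lateCD23int and 36417, 25927, 27299.8 and 23283 in lateCD23lo. The prePB and early libraries of H2-DMb2 did not overlap, the highest prePB library reaching 32658 and the lowest early library 32902. The log2 difference was -0.24 (SE 0.14, 95% interval -0.54 to 0.064, adjusted p = 0.691), and 4.23% of all tested genes had groups that did not overlap in this pair. H2-DMa stood at 11925 ± 1149, 13111 ± 1890.1, 12589.8 ± 1763 and 10355 ± 2067 in prePB, early, lateCD23int and lateCD23lo. H2-DMb1 was measured at 1458, 2005, 1536 and 1783 in prePB, 1734, 2308, 1410.0 and 1643 in early, 1625, 1413, 1952 and 1465 in lateCD23int and 1323, 1492, 1231 and 1147 in lateCD23lo. It did not follow the library number as its neighbours did, and the 3 lowest of its 16 values were lateCD23lo libraries. Per kb, H2-DMb2 exceeded H2-DMb1 by 20.1-fold (log2 4.33 ± 0.29, SD over 16 libraries). The coding sequences of the pair are 95.9% identical over 786 bases, and 27.2% of the 50-base windows of the H2-DMb1 transcript also occur in H2-DMb2. How reads in such windows were split between the pair could move the H2-DMb1 values, and its levels are uncertain for that reason.

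H2-Oa and H2-Ob encode H2-O, the inhibitor of H2-DM. H2-Oa was measured at 2098, 2877, 2057 and 2628 in prePB, 3263, 3264, 2469 and 2197 in early, 3164, 2997, 2594 and 2860.0 in lateCD23int and 2776, 1835, 2002 and 1377 in lateCD23lo. The highest libraries were 1 and 2 of early, and the lowest was library 4 of lateCD23lo. H2-Oa had the smallest p of the 10 genes in the multigroup test, 0.0451 before and 0.481 after adjustment in limma. H2-Ob was measured at 8492, 6600.2, 7018 and 6249 in prePB, 12047, 7666, 8279.8 and 6157 in early, 13828, 9217, 7553 and 9339 in lateCD23int and 11746, 5869, 6855 and 5258 in lateCD23lo. It had the widest relative spread of the 10, from 5258 to 13828, with library 1 the highest of each subpopulation. Its log2 difference of prePB minus lateCD23int was -0.47 (SE 0.24, 95% interval -0.98 to 0.043, adjusted p = 0.620).

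Ciita encodes the class II transactivator. Its normalized counts were 1966, 2460.3, 2699 and 1318 in prePB, 2209, 2597, 2029 and 1899.5 in early, 2533, 2394, 2279.6 and 2044 in lateCD23int and 1999, 1811, 1372 and 1128 in lateCD23lo. All 4 lateCD23int libraries lay above all 4 lateCD23lo libraries, the nearest being 2044 and 1999, while prePB spanned a wider range than either. The log2 difference of lateCD23int minus lateCD23lo was 0.58 (SE 0.22, 95% interval 0.12 to 1.05, adjusted p = 0.715). Groups did not overlap in this pair for 3.77% of all tested genes.

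Whether class II presentation genes differed among the 4 subpopulations was first asked with a multigroup test (limma on log2 of the normalized count + 1, over 12505 genes with a mean of at least 10, call at an adjusted p under 0.05). None of the 10 class II genes passed, 0 of 10, where 51 of 12505 genes did (0.408%). At an unadjusted p under 0.05 there were 1 of 10, H2-Oa, and 1270 of all genes. The quasi-likelihood test of edgeR on recovered reads called 0 of 10 and 29 genes in all, and DESeq2 called 0 of 10 and 265. The gating genes were set beside the labels. Fcer2a, which encodes CD23, stood at 7457 ± 3204 in prePB, 13398 ± 4314 in early, 8594 ± 4492 in lateCD23int and 2274 ± 1172 in lateCD23lo. Cr2, which encodes CD21/35, stood at 1859.7 ± 811, 6638 ± 1826, 6928 ± 1497 and 4738 ± 2939, so its transcript was not higher on average in early than in lateCD23int. Cd69, whose protein defined the prePB gate, stood at 3453 ± 1297, 3159.8 ± 1243, 3762 ± 1766 and 2277 ± 985 and did not set prePB apart (multigroup adjusted p = 0.687 in limma). By contrast, limma called Fcer2a in early against lateCD23lo, a call kept in 45 of 45 alternative fits. Cr2 was called in prePB against early (kept in 34 of 45) and against lateCD23int (37 of 45). The gates were set on surface protein.

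In pairs, limma also called 0 of the 10 genes in each of the 6 comparisons. The share of all genes called was 0.192% for prePB against early, 0.144% for prePB against lateCD23int, 0.264% for prePB against lateCD23lo, 0.00800% for early against lateCD23int, 0.280% for early against lateCD23lo and 0.00800% for lateCD23int against lateCD23lo, so that few genes of any kind passed. By edgeR and by DESeq2 the count was likewise 0 of 10 in all 6 pairs. At an unadjusted limma p under 0.05, 5 of 10 (H2-DMa, H2-DMb1, H2-DMb2, H2-Oa and Ciita) were found in early against lateCD23lo (1290 of all genes) and 2 of 10 (H2-Oa and Ciita) in lateCD23int against lateCD23lo (785 of all genes), with 0 of 10 in each of the other 4 pairs (464 to 1588 of all genes). These counts moved with single libraries. Without lateCD23lo library 1 they were 9 and 8 of 10, and without lateCD23lo library 4 they were 0 and 0. The count for early against lateCD23lo was 1 without early library 1, 1 without early library 2 and 2 without lateCD23lo library 3, and that for lateCD23int against lateCD23lo was 3 without lateCD23int library 3. In the other 4 pairs it was 0 to 3 of 10 with 1 library left out. The counts over all genes in these fits are not given here, so the member counts cannot be set against a background share. Over the 60 member differences, the 95% intervals reached from -0.98 (H2-Ob, prePB minus lateCD23int) to 1.05 (Ciita, lateCD23int minus lateCD23lo) on the log2 scale. For Cd74 in early minus lateCD23int, the interval ran from -0.34 to 0.55, or from 0.791 to 1.46 as a ratio.

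**Figure D2:**
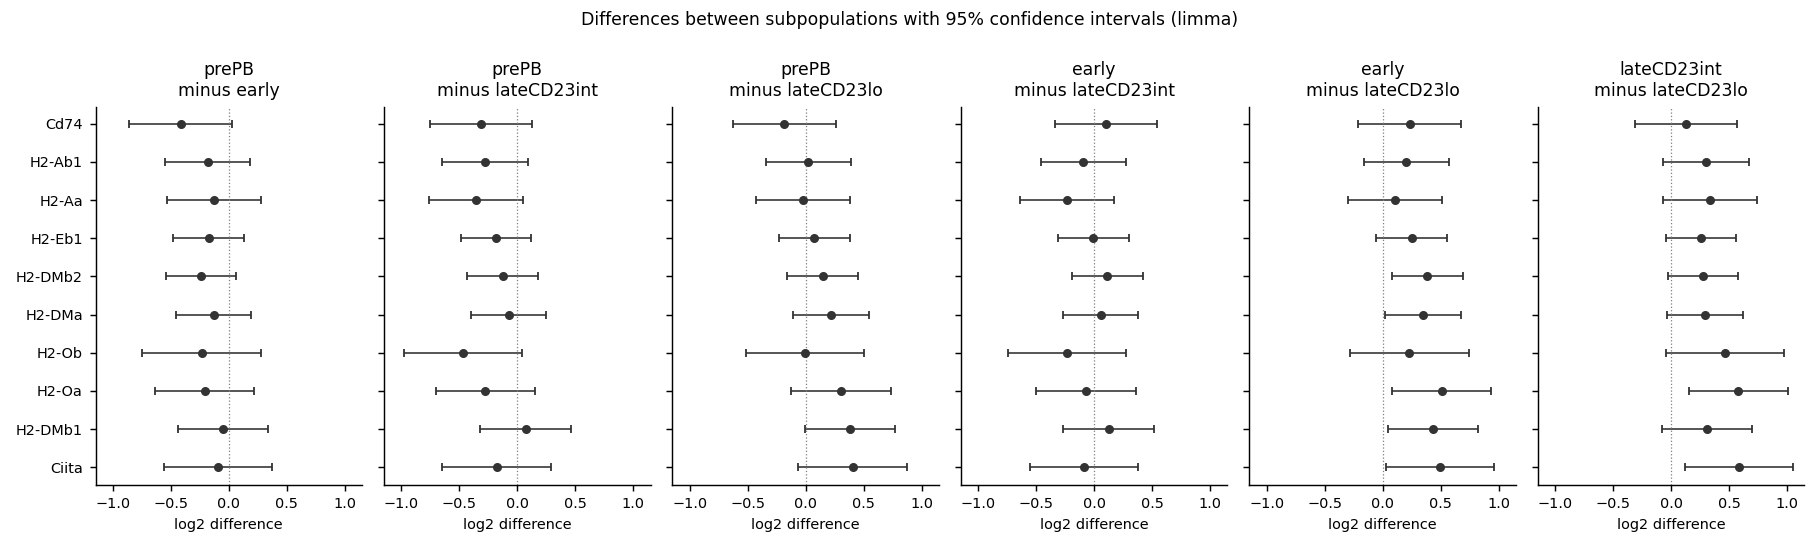
Log2 differences between pairs of subpopulations (x axis) for the 10 class II presentation genes (y axis, ordered by level per kb), with points for the limma estimate and bars for the 95% confidence interval. In early minus lateCD23lo and lateCD23int minus lateCD23lo all 10 points lie to the right of 0, but no gene passed the adjusted threshold in any of the 6 pairs.

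The lateCD23lo cells had the lowest mean for 7 of the 10 genes: H2-Ab1, H2-Eb1, H2-DMa, H2-DMb1, H2-DMb2, H2-Oa and Ciita. In early minus lateCD23lo the estimates were above 0 for 10 of 10 genes, with a median of 0.30 on the log2 scale, beside 49.6% of all tested genes above 0 and a median of -0.0053. That median was 0.46 without lateCD23lo library 1 and 0.22 without lateCD23lo library 4. The largest was H2-Oa, at 0.51 (SE 0.20, 95% interval 0.082 to 0.94, adjusted p = 0.398), and the next Ciita, at 0.49 (SE 0.22, 95% interval 0.028 to 0.96, adjusted p = 0.452). The smallest p belonged to H2-DMb2, at 0.39 (SE 0.14, 95% interval 0.083 to 0.69, adjusted p = 0.359). H2-DMb1 and H2-DMa stood at 0.43 and 0.35, while Cd74 stood at 0.23 and H2-Aa at 0.10. These last intervals included 0. In lateCD23int minus lateCD23lo the estimates were again above 0 for 10 of 10, with a median of 0.30 beside 0.016 over all genes. It was 0.20 without lateCD23int library 1 and 0.44 without lateCD23lo library 1. H2-Oa, at 0.58 (SE 0.20, 95% interval 0.15 to 1.01, adjusted p = 0.699), and Ciita had the largest values there. Both comparisons share the lateCD23lo libraries and the 10 genes move together, so the common sign does not count as 10 observations.

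The prePB cells had the lowest mean of Cd74, H2-Aa and H2-Ob. For H2-Aa and H2-Ob the lateCD23lo median was nevertheless below the prePB median, at 78651 against 83947 and 6362 against 6809. In prePB minus early 0 of 10 estimates were above 0, with a median of -0.18 beside 0.013 over all genes, and they ran from -0.42 for Cd74 to -0.053 for H2-DMb1. In prePB minus lateCD23int 1 of 10 was above 0, H2-DMb1 at 0.072, and the median was -0.23. In prePB minus lateCD23lo the signs were mixed, with 7 of 10 above 0: Ciita stood at 0.40 (SE 0.22, 95% interval -0.063 to 0.87, adjusted p = 0.459) and H2-DMb1 at 0.38 (SE 0.19, 95% interval -0.0096 to 0.77, adjusted p = 0.407), against -0.18 for Cd74. For early minus lateCD23int the counts were 4 of 10 above 0 and a median of -0.039.

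The balance between partner genes was described per kb, without a test. The inhibitor H2-O relative to the editor H2-DM, taken as the mean log2 level of H2-Oa and H2-Ob minus that of H2-DMa and the summed H2-DMb genes, was -2.41 ± 0.12 in prePB, -2.37 ± 0.16 in early, -2.13 ± 0.14 in lateCD23int and -2.37 ± 0.20 in lateCD23lo (SD, n = 4). H2-O transcripts were thus at 0.200 of the H2-DM level over all libraries by this measure. With H2-DMb1 alone in place of the summed H2-DMb genes the ratio was 0.919, so it rests on how the H2-DMb genes are counted. By either measure the subpopulations overlapped. H2-Aa relative to H2-Ab1 stayed between -1.44 and -0.96 in the 16 libraries, so the α chain transcript was below the β chain transcript in each. Cd74 relative to H2-Ab1 was 1.41 ± 0.096 in prePB, 1.64 ± 0.11 in early, 1.45 ± 0.16 in lateCD23int and 1.62 ± 0.11 in lateCD23lo. The genes themselves spanned 2.07-fold for Cd74 and 1.83-fold for H2-Ab1 between the highest and lowest library.

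The class II genes moved together from library to library. Over the 16 libraries, Pearson's r of the log2 values had a median of 0.744 among the 45 pairs of members, beside 0.0525 among all pairs of genes whose mean level reached 1000. After the subpopulation means were taken out the medians were 0.668 and 0.0691. The closest pairs were H2-Ab1 with H2-Ob (r = 0.950), H2-Aa with H2-Ob (r = 0.948) and H2-Ab1 with H2-Eb1 (r = 0.932). H2-DMb1 stood apart: its 9 pairs had a median of 0.311 as measured and -0.0837 with subpopulation means removed, whereas the 36 pairs without it had medians of 0.797 and 0.842. Ciita was less tightly tied to the genes it activates, from r = 0.415 with H2-Aa to r = 0.790 with H2-DMa. These values describe 16 points and carry no test, and the labels do not say which libraries shared a sort or a library preparation.

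**Figure D3:**
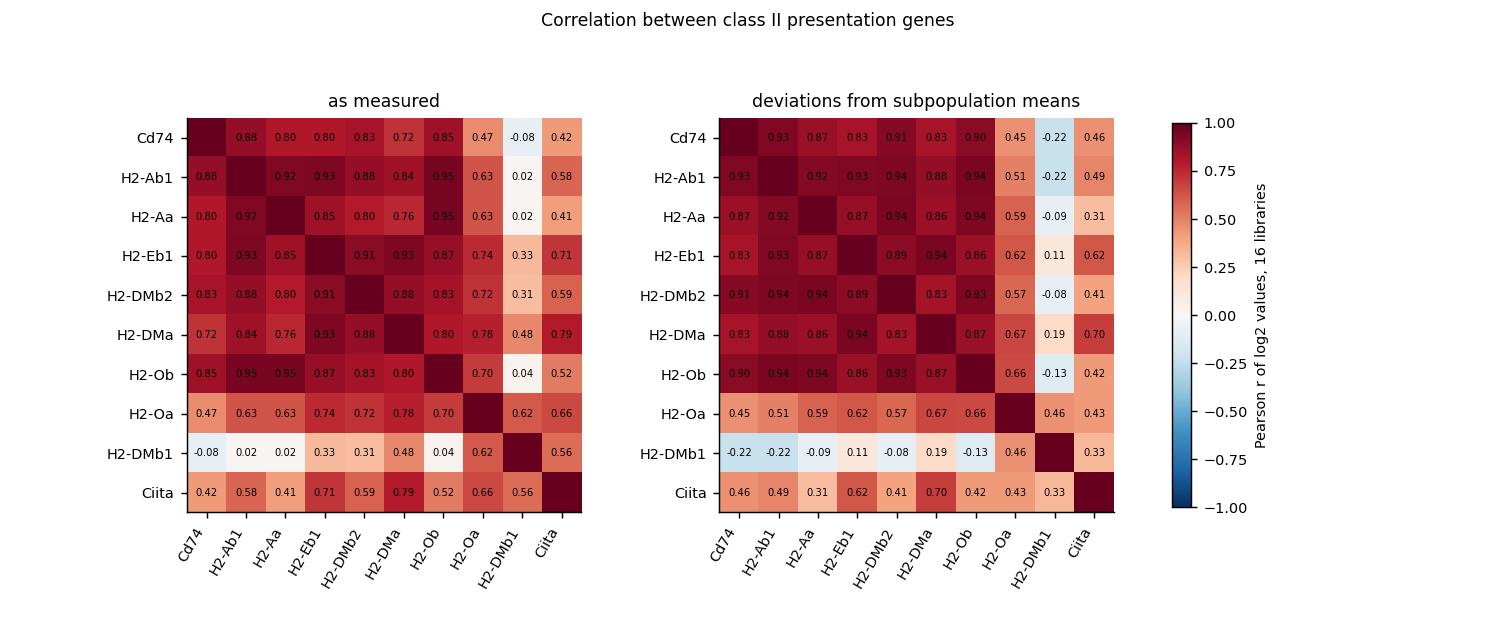
Pearson's r between pairs of class II presentation genes over 16 libraries (both axes list the genes, colour and printed values give r), for the log2 values as measured (left) and for their deviations from subpopulation means (right). H2-DMb1 is pale in both panels, while Cd74, H2-Ab1, H2-Aa, H2-Eb1, H2-DMb2, H2-DMa and H2-Ob form 1 block of high r.

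The 10 genes were averaged into 1 profile (log2 values scaled to mean 0 and SD 1), and the other 12495 tested genes were ranked by their r with it. The 5 most alike were Gimap6, a GTPase of lymphocytes (0.890), Slamf1, a costimulatory receptor (0.885), Cd83 (0.881), the survival gene Bcl2a1b (0.865) and March1 (0.865). March1 encodes a ubiquitin ligase that sends surface class II to degradation, and CD83 is known to oppose it. The 5 most opposed were Aunip (-0.872), Gm38312 (-0.826), Usp14 (-0.816), Rrm1, a subunit of ribonucleotide reductase (-0.814), and Sephs1 (-0.807). With subpopulation means removed, the most alike were Id3 (0.933), Nfkbia (0.915), Ltb (0.913), Slamf1 (0.899) and Cd86 (0.897). Id3 encodes an inhibitor of E proteins, Nfkbia the NF-κB inhibitor IκBα, Ltb lymphotoxin β and Cd86 a costimulatory ligand. The most opposed were then C1qbp (-0.931), the mitotic kinase gene Aurka (-0.913), Rpusd2 (-0.899), the tRNA exporter gene Xpot (-0.899) and the mitochondrial chaperone gene Hspa9 (-0.897). Each r is over 16 libraries and describes likeness of pattern only.

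Class II levels also followed the library number, and the labels do not say what the number marks. Of the spread in Cd74, measured as the sum of squares of the log2 values, 66.3% lay between numbers and 25.4% between subpopulations. For H2-Ob the shares were 61.3% and 25.0%, for H2-Aa 55.8% and 24.0%, and for H2-DMb1 15.0% and 42.7%. Over all tested genes the medians were 21.8% and 21.3%. Library 1 lay above library 4 in all 4 subpopulations for 8 of 10 class II genes and for 15.3% of all genes, and the mean log2 difference of 1 minus 4 was 0.65 for Cd74, 0.78 for H2-Ob and 0.036 for H2-DMb1. An F test of the number in limma, with subpopulation in the model and added after the data were seen, called 2 of 10, Cd74 (adjusted p = 0.0166) and H2-Ob (adjusted p = 0.0164), where 393 of 12505 genes passed (3.14%). Among genes whose mean level reached 1000 the share was 7.67%. The call rested on single libraries: without early library 1 or without lateCD23int library 1 it was 0 of 10, with smallest adjusted p-values of 0.0908 and 0.0573. Without prePB library 1 or prePB library 4 it was H2-Ob alone, without lateCD23lo library 1 Cd74 alone, and without early library 3 or lateCD23int library 3 it was 4 of 10, with H2-Aa and H2-Ab1 added. The summed neutrophil and erythroid markers moved the other way, at 27.9 to 130.4 in the libraries numbered 1 and 464 to 2225 in those numbered 4. Most of this sum was the erythroid genes Hbb-bs (mean 300) and Hba-a1 (mean 143). Of the neutrophil genes, Ngp and S100a9 were at 0 in all 16 libraries and S100a8 did not exceed 8.14. The summed GC B cell markers stood at 164528 to 284162 in the libraries numbered 1 and 112809.9 to 162995 in those numbered 4. The part of either sum in the class II values was not tested.

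**Figure D4:**
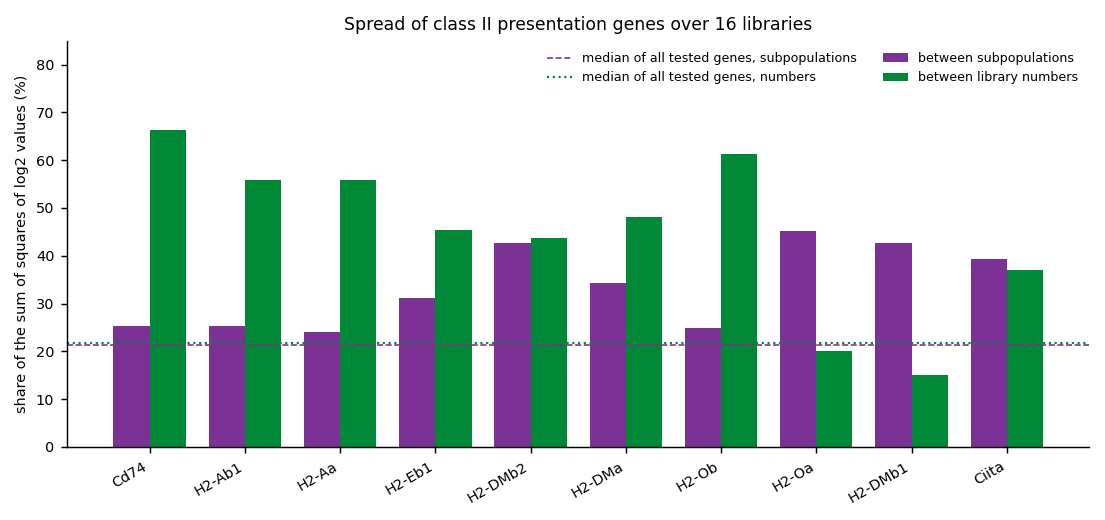
Share of the spread of log2 values over 16 libraries (y axis, percent of the sum of squares) that lies between the 4 subpopulations (purple bars) and between the 4 library numbers (green bars) for each class II presentation gene (x axis); lines are the medians of all tested genes. The green bar is the taller for Cd74, H2-Ab1, H2-Aa, H2-Eb1, H2-DMb2, H2-DMa and H2-Ob, and the purple bar for H2-Oa, H2-DMb1 and Ciita.

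The factors that act upstream of class II transcription were next examined. Of the 8 genes for the RFX, NF-Y and CREB factors that occupy the X and Y boxes, 0 were called by limma, edgeR or DESeq2 in the multigroup test or in any pair, and 0 to 1 of 8 per comparison had an unadjusted limma p under 0.05. Nfyb was the most abundant, at 3102 ± 840.1 in prePB and 3778 ± 501 in lateCD23lo, followed by Creb1 (mean 1843), Atf1 (1071) and Nfyc (979). Rfx5, which encodes a DNA-binding subunit of RFX and is named here after its values were seen, stood at 249 ± 104 in prePB, 521 ± 188 in early, 486 ± 120.0 in lateCD23int and 388 ± 124 in lateCD23lo, with a multigroup adjusted p of 0.432 in limma. Of 12 regulators of Ciita in B cells, 0 were called by limma or edgeR, 1 to 4 of 12 per comparison had an unadjusted limma p under 0.05, and the DESeq2 calls included Bcl6 in prePB against lateCD23lo and Prdm1 in early against lateCD23int and against lateCD23lo. Ebf1 (mean 7166), Irf8 (5440.1) and Pax5 (2845) were among the highest. Prdm1, which encodes BLIMP-1, a repressor of Ciita in plasma cells, was at most 133 in any library.

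Downstream, 0 of 10 genes of endosomal processing were called by limma, edgeR or DESeq2, and 0 to 2 of 10 per comparison had an unadjusted limma p under 0.05. Ctss, the protease that trims the invariant chain to CLIP in B cells, stood at 12193 ± 2091 in prePB, 11837 ± 3260.2 in early, 12547 ± 4139.8 in lateCD23int and 11539 ± 2282 in lateCD23lo. Lgmn, Ctsc and Ctsh followed with means of 9201, 8569.5 and 8435, whereas Ctsl, which does the work of Ctss in thymic epithelium, had a mean of 42.3. Of the 7 measured genes of class II turnover and surface display, limma called 1 in 1 pair. Cd9, which encodes a tetraspanin, was lower in early than in lateCD23lo, at 254 ± 122 against 968 ± 328 (log2 difference -2.04, adjusted p = 0.0394 in limma). That call held in 9 of 16 fits with 1 library left out, and it was lost without library 2 or 4 of early, 2, 3 or 4 of lateCD23lo, or 2 or 3 of prePB, and in edgeR, at adjusted p-values of up to 0.159. Cd83 was the most abundant of the list, at 55615 ± 7997 in prePB, 59379 ± 10251 in early, 74581 ± 14533 in lateCD23int and 44857 ± 15577 in lateCD23lo, and did not pass (multigroup adjusted p = 0.340 in limma). The tetraspanin genes Cd81, Cd37 and Cd82 had means of 9482, 5909.5 and 2348, and March1 1795.

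Class I presentation served as a comparison, being the separate route by which cytosolic peptides are displayed. Of its 16 genes, 0 were called by limma or edgeR, while DESeq2 called H2-K1 in the multigroup test and H2-K1, Tapbp and Tapbpl in prePB against lateCD23lo. At an unadjusted limma p under 0.05 there were 4, 3 and 6 of 16 in prePB against early, lateCD23int and lateCD23lo. Most estimates were above 0 in the comparisons with prePB: 15 of 16 were above 0 in prePB minus early (median 0.32), 16 of 16 in prePB minus lateCD23int (0.29) and 15 of 16 in prePB minus lateCD23lo (0.47), beside class II medians of -0.18, -0.23 and 0.11. The 3 comparisons share the prePB libraries, and the difference between the lists was not tested. Canx, Pdia3, B2m and Psmb8 were the most abundant, with means of 53103, 33408, 27613 and 25053. H2-K1, a class I heavy chain gene named here after its values were seen, stood at 13748 ± 1798 in prePB, 9295 ± 2029.9 in early, 9831 ± 287 in lateCD23int and 8520.2 ± 1479 in lateCD23lo (multigroup adjusted p = 0.160 in limma). H2-Eb2, the class II gene next to the I-E genes, had a mean of 792 and was not called, BC051142 a mean of 38.5, and H2-Pa was at 0 in 15 of 16 libraries.

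**Figure D5:**
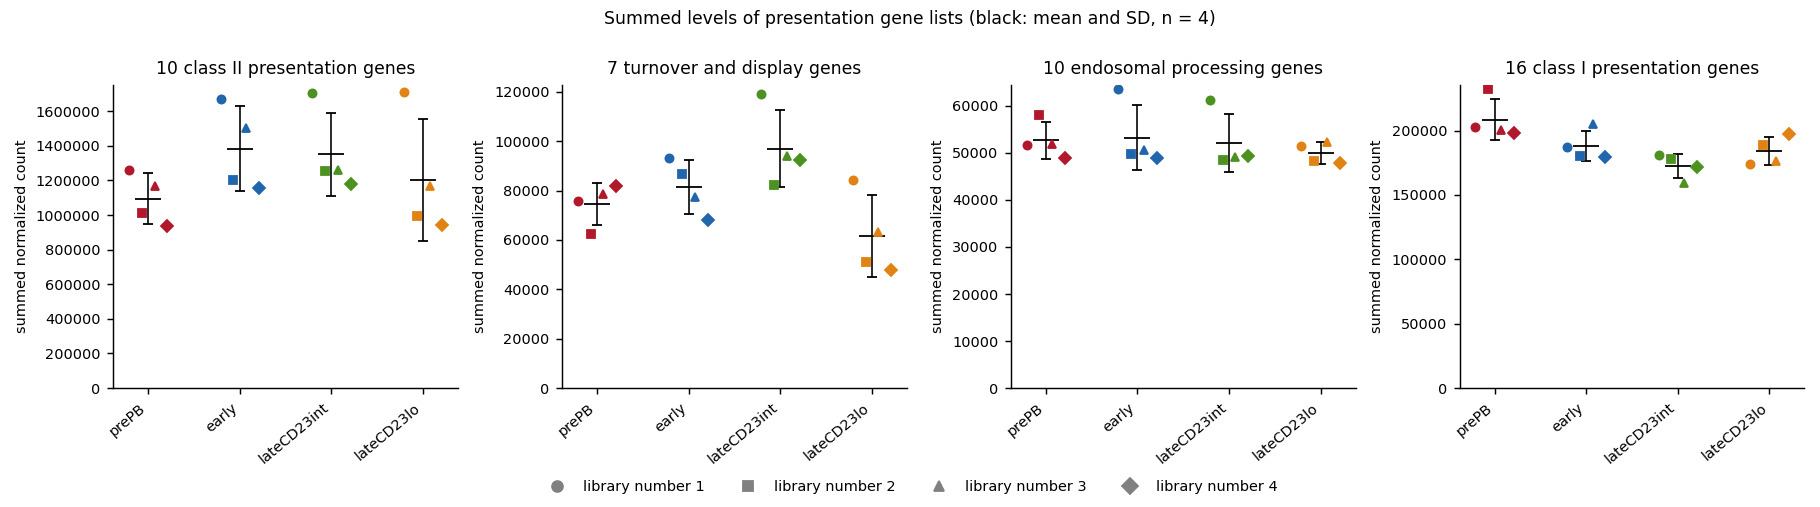
Summed normalized counts (y axis, from 0) of the 10 class II presentation genes, 7 genes of class II turnover and display, 10 of endosomal processing and 16 of class I presentation in the 4 subpopulations (x axis); points are libraries with the marker giving the library number, and black bars are the mean and SD of 4. Class II sums span 937715 to 1710373 with library 1 the highest of each subpopulation, and class I sums 159616 to 231987 without that order.

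Some markers of B cell states passed the test between the subpopulations. Among 8 plasma cell markers, Jchain, which links the chains of secreted IgM and IgA, was lower in early than in lateCD23lo (23623 ± 3331 against 64836 ± 14003, adjusted p = 0.0394 in limma). Among 6 naive and memory B cell markers, the chemokine receptor gene Ccr6 was called in the multigroup test (adjusted p = 0.0236 in limma), at 1032 ± 450.2 in early and 150.3 ± 78.9 in lateCD23lo, and the transcription factor gene Klf2 was called in early against lateCD23lo (79.3 ± 49.7 against 3.15 ± 3.12, adjusted p = 0.0394). The limma calls of Jchain and Klf2 held in 6 of 16 fits with 1 library left out for Jchain and 6 for Klf2, and edgeR did not make them. The plasma cell marker sums ran from 32226 to 123015, mostly Jchain (mean 46424), Mzb1 (10926) and Xbp1 (4094). Sdc1 was at 0 in 9 and Tnfrsf17 in 15 of 16 libraries. The highest sum was in prePB library 1, which also had the highest class II sum of the prePB libraries (1259228). The next was in lateCD23lo library 4, which was the lowest of all 16 libraries for 8 of the 10 class II genes. The part of plasma cell transcripts in those values was not tested.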

How the data were processed

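RNA from sorted cMyc+ GC B cells was extracted with a micro-scale column kit, made into libraries with a low-input kit and sequenced by the authors. Per the labels, GRCm38 was the build, and the submitters' processing notes name Trimmomatic 0.36, STAR 2.5.2a, RSEM 1.2.31, DESeq2 1.20.0 and R 3.5.1. The deposited signal is a table of gene counts, each library scaled by the authors with its own size factor. Every value was a whole multiple of the smallest value of its library (100% within 0.01 reads), so whole reads were recovered for the count-based alternatives. Depth was 19812080 to 25795815 reads, at which 3 reads equal 2.48 to 3.23 normalized counts.

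Genes with a mean of at least 10 (12505 of 51912) were tested with limma 3.58.1 in R 4.3.3 on log2(normalized count + 1) with a mean-variance trend over all 16 libraries, by a moderated F test and 6 contrasts, with Benjamini-Hochberg adjustment over all genes tested and a threshold of 0.05. Fold changes are on that scale, and 95% intervals use the moderated SE. Alternatives were pseudocounts of 0.5 and 5, no filter or a mean of at least 50, other scalings, no trend, only the groups compared, the replicate number as a block, edgeR 4.0.16, DESeq2 1.42.0 and leaving out each library. The test was checked on simulated data in which genes varied independently and the library number had no effect. That check therefore does not cover the spread between numbers seen here. No pair of libraries of the same subpopulation agreed within sampling noise, and pairs across subpopulations were not checked. Levels per kb used the principal GENCODE transcript.

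The class II genes and the gene lists were chosen with earlier results of these data known. Named were all 10 class II genes; from the lists each gene past the threshold and up to 4 of the highest; and the 5 genes most and least like the class II profile. H2-Ea, Marchf1, Marchf8 and Fdcsp were not found under those symbols, and March1 and March8 were used. Some genes of the lists are not reported here.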

Additional observations from a re-analysis of the deposited data

Results flagged for a closer look

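Within each subpopulation, the gap between the highest or lowest library and its nearest neighbour was compared with the range of the 4 libraries, for 10 genes in 4 subpopulations. In 2 of 40 cases the gap passed Dixon's 95% critical value for 4 samples, and chance gives about 1 in 20. Both cases were library 1 of lateCD23int. For H2-Aa it stood at 156725 and the other 3 libraries at 93057 to 97756, a gap of 0.926 of the range. For H2-DMb2 it stood at 41399 and the others at 31237 to 31496, a gap of 0.9745 of the range. That library was also the highest of all 16 for 6 of the 10 class II genes.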

How the results depend on the processing

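The count of class II genes called stayed at 0 of 10 in the multigroup test and all 6 pairs under each of the 45 alternatives that gave a value, edgeR, DESeq2 and the omission of each library included. The number of all genes called did change. Over the alternatives other than leaving 1 library out it was 25 (no mean-variance trend) to 265 (DESeq2) in the multigroup test beside 51, 0 to 131 in prePB against early beside 24, 8 to 130 in prePB against lateCD23int beside 18, 13 to 273 in prePB against lateCD23lo beside 33, 0 to 20 in early against lateCD23int beside 1, 20 to 173 in early against lateCD23lo beside 35 and 0 to 15 in lateCD23int against lateCD23lo beside 1. With 1 library left out it was 31 to 68, 3 to 30, 7 to 31, 16 to 153, 0 to 1, 17 to 50 and 0 to 1 in the same order, and with the replicate block as well 74 to 277, 33 to 80, 35 to 141, 42 to 344, 0 to 3, 28 to 245 and 0 to 2. The 2 of 10 class II genes at an unadjusted p under 0.05 in lateCD23int against lateCD23lo became 8 with the same total per library and 7 with quantile normalization. The counts over all genes at that p in these 2 fits are not given here. Of 2700 recomputed class II differences, none passed the threshold and 52 changed sign, all of differences that had not passed. H2-Aa in prePB minus lateCD23lo became 0.059 with the same total per library, 0.056 with that total taken without the class II genes and 0.24 with quantile normalization. H2-Ob in the same pair became 0.077, 0.074 and 0.076, and 4.0e-04 in edgeR with the replicate block. H2-Eb1 in early minus lateCD23int became 4.70e-05 with the total taken without the class II genes, 0.0086 in edgeR and 0.0013 in edgeR with the block. Quantile normalization gives Cd74 and H2-Ab1 a difference of 0 by construction, since it fixes the values of the highest ranks. The cause of the other sign changes was not tested. With 1 library left out, the ranges that crossed 0 were -5.6e-04 to 0.22 for Cd74 in early minus lateCD23int, -0.30 to 0.014 for Cd74 in prePB minus lateCD23lo, -0.23 to 0.12 for Ciita in prePB minus early, -0.31 to 0.030 for Ciita in prePB minus lateCD23int, -0.11 to 0.14 for H2-Aa in prePB minus lateCD23lo, -0.17 to 0.0074 for H2-Ab1 in early minus lateCD23int, -0.066 to 0.18 for H2-Ab1 in prePB minus lateCD23lo, -0.014 to 0.16 for H2-DMa in early minus lateCD23int, -0.12 to 0.019 for H2-DMa in prePB minus lateCD23int, -0.0097 to 0.23 for H2-DMb1 in early minus lateCD23int, -0.16 to 0.082 for H2-DMb1 in prePB minus early, -0.013 to 0.17 for H2-DMb1 in prePB minus lateCD23int, -0.075 to 0.095 for H2-Eb1 in early minus lateCD23int, -0.0021 to 0.20 for H2-Eb1 in prePB minus lateCD23lo, -0.15 to 0.038 for H2-Oa in early minus lateCD23int and -0.15 to 0.24 for H2-Ob in prePB minus lateCD23lo. With the block as well, the sign changes were 0.028 for Ciita in prePB minus early without prePB library 4, 0.037 for H2-Aa in prePB minus lateCD23lo without lateCD23lo library 1, 0.092 for H2-Aa in prePB minus lateCD23lo without prePB library 1, -0.011 for H2-Ab1 in prePB minus lateCD23lo without lateCD23lo library 3, -0.011 for H2-Ab1 in prePB minus lateCD23lo without lateCD23lo library 4, -0.034 for H2-Ab1 in prePB minus lateCD23lo without prePB library 3, -0.0074 for H2-DMa in early minus lateCD23int without lateCD23int library 2, 0.0099 for H2-DMa in prePB minus lateCD23int without prePB library 1, -0.031 for H2-DMb1 in early minus lateCD23int without lateCD23int library 2, 0.050 for H2-DMb1 in prePB minus early without early library 2, 0.021 for H2-DMb1 in prePB minus early without prePB library 1, -0.084 for H2-DMb1 in prePB minus lateCD23int without lateCD23int library 2, 0.050 for H2-Eb1 in early minus lateCD23int without early library 4, 0.044 for H2-Eb1 in early minus lateCD23int without lateCD23int library 4, 0.095 for H2-Ob in prePB minus lateCD23lo without lateCD23lo library 1, 0.023 for H2-Ob in prePB minus lateCD23lo without lateCD23lo library 3 and 0.10 for H2-Ob in prePB minus lateCD23lo without prePB library 1. The number test called 0 to 4 class II genes with 1 library left out.

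The library numbers were not used as pairs in the main fit, because the labels do not say what they mark. Over all genes, the deviations of same-numbered libraries from their subpopulation means correlated at -0.129 to 0.174 (mean 0.0509), with 5 of 24 above 0.1, beside 4 of 72 among pairs with other numbers (mean -0.0166). With the replicate block in limma, 0 of 10 class II genes were called in the multigroup test (adjusted p from 0.195 to 0.451), 7 of 10 had an unadjusted p under 0.05 (6 in early against lateCD23lo and 8 in lateCD23int against lateCD23lo), and 173 genes were called in all. The block with a library left out and the number test were added after the data were seen. Klf2, with a mean under 50, could not be tested at that filter.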

Other observations

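Beyond the class II genes themselves, the sequence search returned a short list. Of the 9 promoters in the RefSeq table that hold an X box followed by a Y box on the same strand within the stated spacing, 5 lie on chromosome 17. The 5 that are not class II presentation genes are those of BC051142, Dnah6, Scgb2b20, Gm34733 and Bscl2. BC051142 had a mean of 38.5 normalized counts in these cells, Bscl2, which encodes the lipid droplet protein seipin, 475, Dnah6 12.1 and Scgb2b20 0, while Gm34733 had no row under that symbol. Cd74, H2-Ab1 and Ciita had no entry in the table used here.

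The number of other genes with an r above 0.8 to the class II profile was 26 as measured and 65 with subpopulation means removed, of 12495. Cd83 and March1, known for opposite effects on class II at the surface, were both among the 5 most alike as measured.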
